A study of Mus musculus with 6 samples.

Results

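Toll-like receptors (TLRs) are the receptors with which B cells, like cells of the innate immune system, sense microbial products directly. The genes described here were taken by name: the 8 receptor genes Tlr1, Tlr2, Tlr3, Tlr4, Tlr6, Tlr7, Tlr8 and Tlr9, and the genes of the CD180 complex, Cd180 and Ly86. They are 10 of the 23420 genes counted, and the rule that names them uses no measured value, although earlier results of these data were known when they were picked. The samples were splenic B lymphocytes of Ahr+/+ or Ahr-/- mice on the C57Bl/6J background, with 3 libraries of each genotype. The product of Ahr, the aryl hydrocarbon receptor or AhR, is a ligand-activated transcription factor. The cells of both genotypes had been kept for 8 h in IMDM with 5% FCS, 10 µg/ml α-IgM to engage the B-cell receptor and 20 ng/ml IL-4, with FICZ, an agonist of AhR, added to 250 nM over the last 4 h. No TLR ligand was among the listed additions, and a culture without FICZ was not analysed here, so the comparison is between genotypes under 1 set of conditions. The mutation is carried in the germline, so it was present in every cell of the mouse throughout development and not in B cells alone.

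TLRs fall into groups by place and ligand. TLR1, TLR2, TLR4 and TLR6 act at the cell surface: TLR2 pairs with TLR1 or TLR6 to bind bacterial lipopeptides, and TLR4 binds lipopolysaccharide together with its partner MD-2. TLR3, TLR7, TLR8 and TLR9 act in endosomes and bind nucleic acids, TLR3 double-stranded RNA, TLR7 single-stranded RNA and TLR9 DNA with unmethylated CpG. CD180, also called RP105, resembles TLR4 outside the cell but lacks the intracellular TIR signalling domain, and it is held at the surface by MD-1, the product of Ly86, much as TLR4 is by MD-2. B cells carry abundant CD180, and antibodies against it drive their proliferation. Ligands of TLR7 and TLR9 activate B cells strongly.

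Of the receptors that changed between genotypes, Tlr9 was the most abundant, and its gene lies at chr9:106222598-106226883 on the plus strand of GRCm38. The 250 bases before its start site, chr9:106222348-106222597, are shown from the RefSeq table of GRCm38.p6 because they hold, close together, the letters of an octamer element and of an AP-1 site, both in capitals.

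Tlr9 upstream: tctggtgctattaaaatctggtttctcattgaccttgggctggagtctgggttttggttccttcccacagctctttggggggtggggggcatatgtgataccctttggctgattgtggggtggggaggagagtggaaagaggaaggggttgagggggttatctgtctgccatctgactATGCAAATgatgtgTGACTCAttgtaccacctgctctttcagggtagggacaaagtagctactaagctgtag

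The octamer letters ATGCAAAT, to which the widely expressed factor OCT1 and the B-cell factor OCT2 are known to bind, begin 72 bases before the start site. The AP-1 letters TGACTCA begin 58 bases before it. Both motifs were chosen after the sequence had been read. Searched on both strands, ATGCAAAT was present in 1.74% and TGACTCA in 5.2% of the 32851 promoter windows of the table, each running from 250 bases before to 50 bases after a start site. The windows of 8 of the 10 genes were in the table, 11 windows in all, and the octamer and AP-1 letters were found in that of Tlr9 alone. The core letters of the AhR response element, GCGTG, were in 0 of these 11 windows, against 32.4% of all windows. These matches describe letters in a short window and show no binding.

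Tlr1 and Tlr6 are neighbours on chromosome 5 and similar in sequence, which bears on how reads are counted. The longest stretch they share is 229 bases of coding sequence, read here on the minus strand of GRCm38 and shown because a read within it fits either gene.

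Tlr1 at chr5:64925537-64925765 and Tlr6 at chr5:64953828-64954056: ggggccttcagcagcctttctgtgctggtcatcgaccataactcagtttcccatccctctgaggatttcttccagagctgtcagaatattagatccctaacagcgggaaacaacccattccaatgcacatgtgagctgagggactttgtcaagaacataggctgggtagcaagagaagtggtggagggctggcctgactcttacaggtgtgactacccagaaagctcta

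In all, 454 sequences of 50 bases occurred in both genes, which was 13.6% of those in Tlr1 and 12.3% of those in Tlr6. No other pair of the 10 genes shared a sequence of that length. How such reads were assigned is not given in the sources used here, so the counts of Tlr1 and Tlr6 carry this uncertainty.

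The libraries held 22095096 to 53648787 counts. Normalized counts below are raw counts divided by each library's TMM-scaled size, and values are mean ± SD of 3 libraries unless given by library. The study describes the samples of each genotype as coming from separate mice, which the labels themselves do not state. The labels were checked on 2 genes: Cyp1a1, the classical target of AhR, averaged 5246 ± 242 normalized counts in Ahr+/+ libraries against 5.36 ± 2.20 in Ahr-/- libraries, and Ahr itself 13175 ± 682 against 9174 ± 472, a count over the whole gene that does not show which exons were read. B-cell identity was plain in all 6 libraries, with Cd79b, a signalling subunit of the B-cell receptor, between 20668 and 28584 normalized counts. The B cells were enriched with a negative isolation kit and were not pure. In such bulk samples, fewer cells of a type and less RNA per cell cannot be told apart.

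Tlr9, Tlr1, Tlr2 and Ly86, 4 of the 10 genes, rose in Ahr-/- B cells by edgeR's quasi-likelihood test with a threshold of 0.05 on the adjusted p. None was lower in this main edgeR fit or by DESeq2, and 1, Tlr3, was lower in the main fit at an unadjusted p under 0.05. Some of the alternative edgeR fits given at the end did call Tlr3 lower. All 10 passed the filter of 10 counts over the 6 libraries. Among the 13682 genes tested, 17.9% were called, 9.79% as higher and 8.13% as lower in Ahr-/- B cells. For 6 of the 10 genes the libraries of the genotypes were fully apart, against 33.5% of all genes tested. The median log2 fold change was 0.16 for the 10 genes and 0.0022 for all genes tested, and the median size regardless of sign was 0.28 against 0.11. The genes were not independent of one another in function or position, and these shares are a description of the group.

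**Figure D1:**
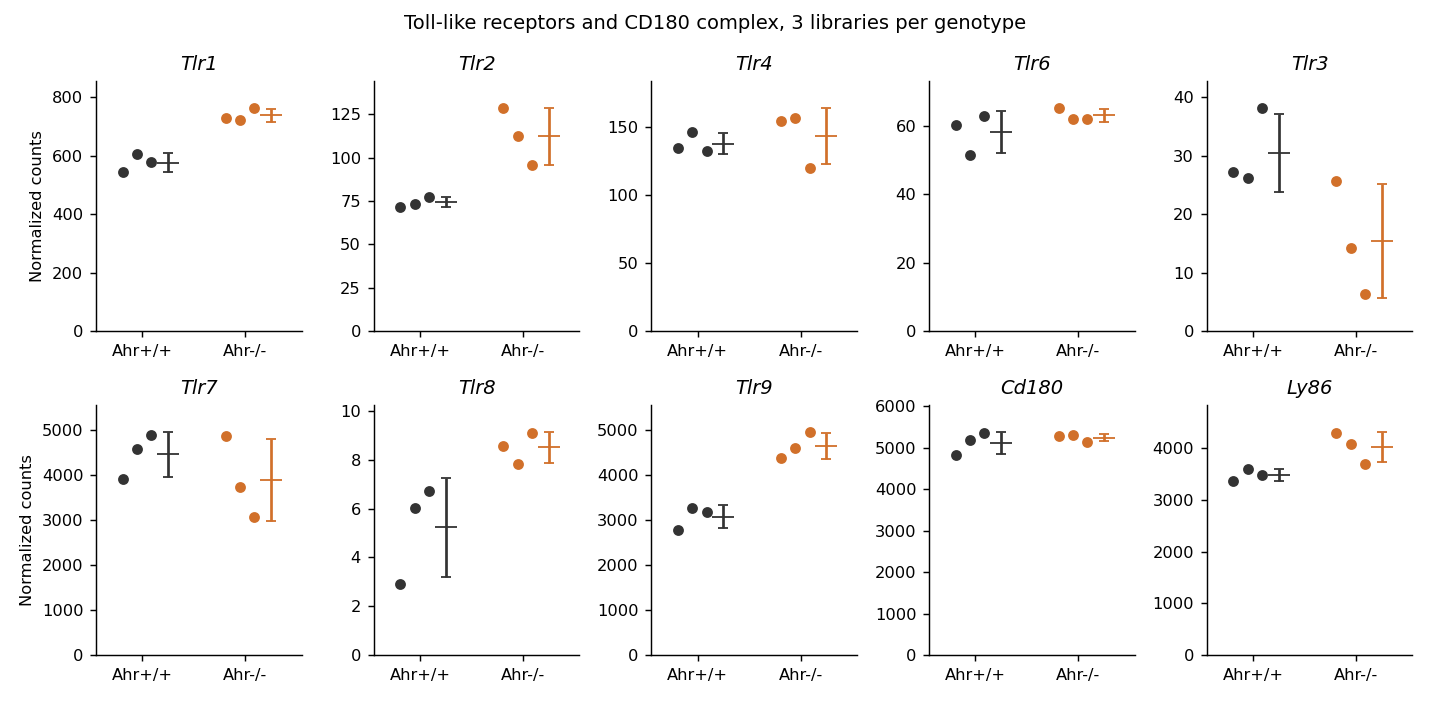
Normalized counts of the 10 genes in each library, with a panel per gene whose axis starts at 0. Points are single libraries in the order of their replicate numbers, and bars beside them are the mean and SD of 3 libraries. The genotypes are apart for Tlr1, Tlr2, Tlr3, Tlr8, Tlr9 and Ly86 and overlap for Tlr4, Tlr6, Tlr7 and Cd180.

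Tlr9, the endosomal receptor for CpG DNA, rose by 51.3% in Ahr-/- B cells. The Ahr+/+ libraries had 2783, 3274 and 3185 normalized counts (3081 ± 262) and the Ahr-/- libraries 4397, 4611 and 4977 (4662 ± 293). The lowest Ahr-/- library lay well above the highest Ahr+/+ library. The log2 fold change was 0.60 (SE 0.06, 95% interval 0.47 to 0.73, edgeR adjusted p = 2.1e-05). It lay between 0.53 and 0.65 with any single library left out and passed the threshold each time.

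Tlr7, the endosomal receptor for single-stranded RNA, was, like Tlr9, among the 4 most abundant of the genes per length but did not pass the test. Its gene is on the X chromosome, at chrX:167304929-167330558 on the minus strand, next to Tlr8. The Ahr+/+ libraries had 3913, 4579 and 4891 normalized counts (4461 ± 499) and the Ahr-/- libraries 4854, 3739 and 3060 (3884 ± 906). The Ahr-/- replicate 1 lay among the Ahr+/+ libraries, while the other two Ahr-/- libraries lay below all of them. On the log2 scale the difference was -0.21 (SE 0.13, 95% interval -0.49 to 0.07, edgeR adjusted p = 0.31), and without Ahr-/- replicate 1 it was -0.39 with an edgeR adjusted p of 0.014. Without Ahr-/- replicate 3 it was -0.069, and without Ahr+/+ replicate 3 it was -0.14 (edgeR adjusted p = 0.69 and 0.61). All 6 libraries had little Xist, the transcript of the inactive X chromosome, at 5.03 to 10.3 normalized counts, so for this X-linked gene the libraries were alike in that respect.

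Tlr3, the endosomal receptor for double-stranded RNA at chr8:45395665-45411080, was scarce. The Ahr+/+ libraries had 27.2, 26.2 and 38.2 normalized counts (30.5 ± 6.66) and the Ahr-/- libraries 25.7, 14.2 and 6.38 (15.4 ± 9.74). The genotypes did not overlap, but Ahr-/- replicate 1 fell just short of the lowest Ahr+/+ library. Its log2 fold change of -1.11 (SE 0.38, 95% interval -1.94 to -0.28) missed the threshold with an edgeR adjusted p of 0.065. Without Ahr-/- replicate 1 it was -1.50, with an edgeR adjusted p of 0.018. Without Ahr-/- replicate 3 it was -0.74 and without Ahr+/+ replicate 3 -0.92 (edgeR adjusted p = 0.16 and 0.22). An antisense gene, Gm45542, overlaps Tlr3 over 698 bases, and the counting option for strand is not given in the sources used here.

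The Ahr-/- libraries differed among themselves in Tlr7 and Tlr3 more than the Ahr+/+ libraries did. The coefficient of variation of Tlr7 was 23.3% in Ahr-/- and 11.2% in Ahr+/+ B cells, and that of Tlr3 was 63.0% and 21.8%. Irf7, an interferon-inducible transcription factor that acts downstream of TLR7 and TLR9, had 1529, 950 and 604 normalized counts in Ahr-/- replicates 1, 2 and 3 and 829, 1342 and 1213 in the Ahr+/+ replicates. The library with the highest and the library with the lowest Irf7 within the Ahr-/- genotype were also those with the highest and lowest Tlr7 and Tlr3. Within the Ahr+/+ genotype the orders differed: replicate 1 had the lowest Irf7 and the lowest Tlr7, but replicate 2 had the highest Irf7 with the lowest Tlr3 and a middle Tlr7, and replicate 3 had the highest Tlr7 and Tlr3. The part of this variation in the results on Tlr7 and Tlr3 was not tested.

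Tlr8, beside Tlr7 at chrX:167242696-167264329, was close to the limit of detection, with raw counts of 3, 6 and 6 in Ahr+/+ and 5, 11 and 10 in Ahr-/- B cells. Scaled for library size these were 2.91 to 6.74 and 7.82 to 9.12 normalized counts, which did not overlap. The log2 fold change of 0.70 (SE 0.44, 95% interval -0.27 to 1.66, edgeR adjusted p = 0.33) was not distinguishable from 0 at this depth.

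**Figure D2:**
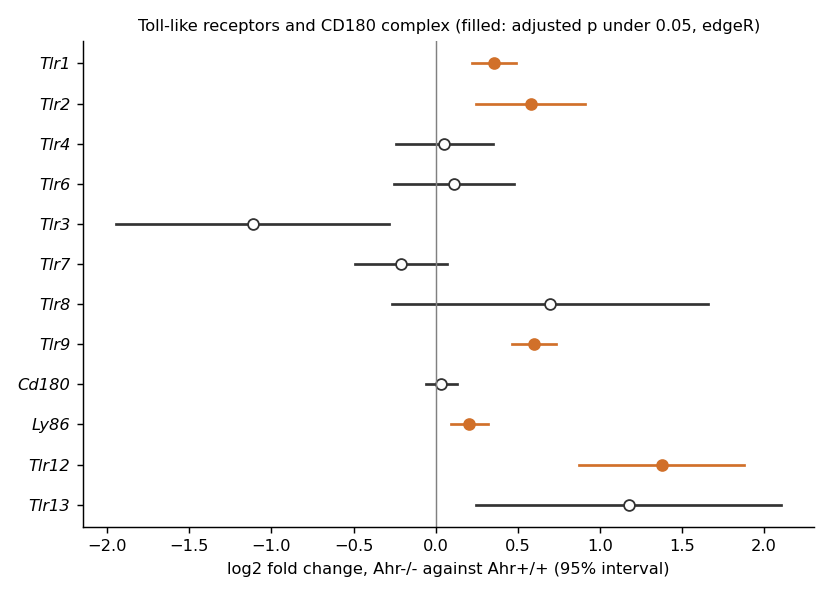
Log2 fold change, Ahr-/- against Ahr+/+, of the 10 genes and of Tlr12 and Tlr13, with 95% intervals from the edgeR fit. Filled points passed an adjusted p of 0.05: Tlr1, Tlr2, Tlr9, Ly86 and Tlr12, all to the right of 0.

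Among the surface receptors, Tlr1 and Tlr2 rose and Tlr4 and Tlr6 did not pass the test. Tlr1, at chr5:64924679-64933563, encodes the partner with which TLR2 binds triacylated lipopeptides. The Ahr+/+ libraries had 544, 608 and 580 normalized counts (577 ± 32.0) and the Ahr-/- libraries 729, 723 and 764 (739 ± 22.1). Every Ahr-/- library lay above every Ahr+/+ library, by more than the spread within either genotype. Its log2 fold change was 0.36 (SE 0.06, 95% interval 0.22 to 0.49, edgeR adjusted p = 0.0013), and it passed the threshold with any single library left out.

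Tlr2, at chr3:83836272-83841767, encodes the common subunit of the lipopeptide receptors. The Ahr+/+ libraries had 71.9, 73.4 and 77.5 normalized counts (74.3 ± 2.90) and the Ahr-/- libraries 129, 112 and 95.7 (112 ± 16.5). The Ahr+/+ libraries lay close together, while the Ahr-/- libraries were spread from replicate 3, the lowest, to replicate 1, the highest. The fitted log2 fold change was 0.58 (SE 0.15, 95% interval 0.25 to 0.91, edgeR adjusted p = 0.019). The call was lost when any library other than Ahr-/- replicate 3 was left out, with log2 fold changes of 0.49 to 0.61 and edgeR adjusted p of 0.051 to 0.075.

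Tlr6, at chr5:64952031-64960097, encodes the partner with which TLR2 binds diacylated lipopeptides. It had 60.2, 51.3 and 62.9 normalized counts in Ahr+/+ libraries (58.1 ± 6.06) and 65.2, 61.8 and 62.0 in Ahr-/- libraries (63.0 ± 1.90), and the genotypes overlapped. Its log2 fold change was 0.11, with a 95% interval of -0.25 to 0.48 that also holds the fold change of its neighbour Tlr1 (edgeR adjusted p = 0.72).

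Tlr4, the lipopolysaccharide receptor at chr4:66827584-66930284, had 135, 147 and 133 normalized counts in Ahr+/+ libraries (138 ± 7.68) and 154, 157 and 120 in Ahr-/- libraries (144 ± 20.5). Ahr-/- replicate 3 was the lowest and the other two Ahr-/- libraries the highest of the 6. The log2 fold change was 0.05 (95% interval -0.24 to 0.35, edgeR adjusted p = 0.84) and had no stable sign, being -0.034 without Ahr-/- replicate 2.

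Of the genes of the CD180 complex, Ly86 passed the test and Cd180 did not. Cd180, at chr13:102693558-102739629, had 4826, 5192 and 5354 normalized counts in Ahr+/+ libraries (5124 ± 270) and 5284, 5304 and 5144 in Ahr-/- libraries (5244 ± 87.1). All Ahr-/- libraries lay within the range of the Ahr+/+ libraries. Its log2 fold change was 0.03, and its 95% interval of -0.06 to 0.13 was the narrowest of the 10 genes (edgeR adjusted p = 0.67). Without Ahr+/+ replicate 1 it was -0.0082. Mast4 overlaps Cd180 on the other strand over 7144 bases.

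Ly86, at chr13:37345208-37419036, encodes MD-1 and rose slightly. The Ahr+/+ libraries had 3366, 3611 and 3486 normalized counts (3488 ± 123) and the Ahr-/- libraries 4299, 4080 and 3707 (4029 ± 299). The genotypes were apart, with Ahr-/- replicate 3 nearest to the Ahr+/+ libraries. The log2 fold change was 0.21 (SE 0.05, 95% interval 0.09 to 0.32, edgeR adjusted p = 0.017). The call was lost without Ahr-/- replicate 1, Ahr-/- replicate 2, Ahr+/+ replicate 1 or Ahr+/+ replicate 3, with log2 fold changes of 0.16 to 0.20 and edgeR adjusted p of 0.059 to 0.067.

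To compare levels between genes, counts were divided by the summed exon length of each gene and expressed as CPM per kb. In Ahr+/+ B cells the 4 most abundant were Cd180 at 29.6 ± 1.56, Tlr7 at 28.4 ± 3.18, Ly86 at 25.0 ± 0.879 and Tlr9 at 23.0 ± 1.96 CPM per kb. The ranges of neighbours in this order overlapped, but Cd180 lay above Ly86 and Tlr9, and Tlr7 above Tlr9, without overlap. Tlr1 followed at 4.49 ± 0.249 CPM per kb, 5.14-fold below Tlr9 and apart from it. Tlr4, Tlr2, Tlr6, Tlr3 and Tlr8 came next, at 0.647, 0.641, 0.406, 0.152 and 0.0379 CPM per kb, and within these only Tlr4 and Tlr2 overlapped.

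In Ahr-/- B cells Tlr9 stood at the head of the order, at 34.9 ± 2.19 CPM per kb. Cd180 followed at 30.3 ± 0.502, Ly86 at 28.9 ± 2.14 and Tlr7 at 24.8 ± 5.77 CPM per kb. The lowest Tlr9 level of any Ahr-/- library exceeded the highest Cd180 level, whereas Cd180 overlapped with Ly86 and Ly86 with Tlr7. Tlr2, at 0.969 CPM per kb, was above Tlr4, at 0.674, without overlap, and Tlr3 and Tlr8 overlapped. The order rests in part on the gene length used. With the longest annotated transcript in place of all exons, Cd180 was at 50.3 CPM per kb in Ahr+/+ and 51.5 in Ahr-/- B cells and led in both, and Ly86 came next at 33.8 and 39.1, so that Tlr7 was the third in Ahr+/+ and Tlr9 the third in Ahr-/- B cells. Tlr4 was then at 0.882 and 0.919 CPM per kb, apart from Tlr2 in Ahr+/+ and overlapping with it in Ahr-/- libraries.

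Read as a repertoire, the TLR transcripts of these cells were mostly Tlr7 and Tlr9. Over all 12 TLR genes, these receptors for RNA and DNA together made up 88.1% to 89.2% of the summed CPM per kb in Ahr+/+ libraries and 87.3% to 88.1% in Ahr-/- libraries. Tlr7 accounted for 48.0%, 48.3% and 50.5% in Ahr+/+ libraries and for 42.7%, 35.7% and 30.0% in Ahr-/- libraries. Tlr9 accounted for 40.1%, 40.5% and 38.6% and for 45.4%, 51.7% and 57.3%. In every Ahr+/+ library Tlr7 had the larger share, and in every Ahr-/- library Tlr9 did. The summed level was 52.0, 60.5 and 61.7 CPM per kb in Ahr+/+ libraries and 72.5, 66.7 and 65.0 in Ahr-/- libraries.

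**Figure D3:**
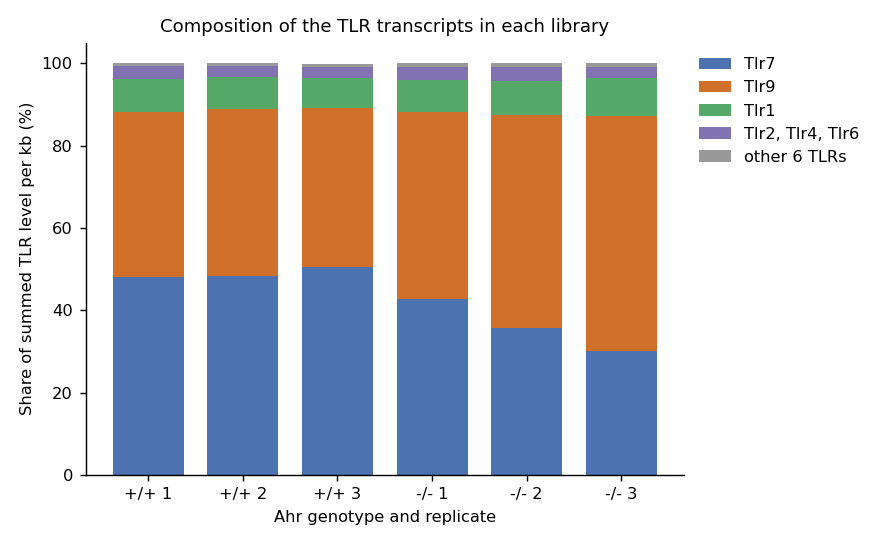
Share of each TLR in the summed CPM per kb of all 12 TLR genes, as a stacked bar for each library. Tlr7 and Tlr9 fill 87.3% to 89.2% of every bar, and the boundary between them is lower in the Ahr-/- libraries, where Tlr7 takes 30.0% to 42.7%.

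Ratios of counts within a library do not depend on how libraries are scaled, and 5 were compared between genotypes with a two-sided exact permutation test, which with 3 libraries against 3 cannot give a p below 0.1. The ratio of Tlr9 to Tlr7 was 0.711, 0.715 and 0.651 in Ahr+/+ libraries and 0.906, 1.23 and 1.63 in Ahr-/- libraries. The ranges did not overlap, and the difference of 0.82 on the log2 scale gave the smallest p the exact permutation test allows (p = 0.1, 0.167 adjusted over the 5 ratios). The ratio of Tlr2 to Tlr4 was 0.532, 0.5 and 0.585 against 0.833, 0.715 and 0.795, also without overlap, a log2 difference of 0.54 (exact permutation p = 0.1, adjusted 0.167). The ratio of Cd180 to Ly86, the receptor to its partner, was 1.43, 1.44 and 1.54 in Ahr+/+ libraries and 1.23, 1.30 and 1.39 in Ahr-/- libraries. It was lower by 0.17 on the log2 scale with no overlap (exact permutation p = 0.1, adjusted 0.167). The ratio of Tlr1 to Tlr6 overlapped, at 9.03, 11.8 and 9.21 against 11.2, 11.7 and 12.3 (exact permutation p = 0.3, adjusted 0.375). The ratio of Tlr4 to Cd180 differed by 0.02 on the log2 scale (exact permutation p = 0.9). None of the 5 passed a threshold of 0.05, which this test cannot reach with 3 libraries against 3.

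The mouse has further TLR genes that were not among the 10. Tlr12, which with TLR11 senses the protozoan protein profilin, had 14.6, 17.1 and 18.0 normalized counts in Ahr+/+ libraries and 46.3, 42.7 and 41.0 in Ahr-/- libraries. It was 2.62-fold higher with no overlap, a log2 fold change of 1.38 (SE 0.23, edgeR adjusted p = 0.0011). Tlr13, a receptor for bacterial ribosomal RNA, had 3.89, 10.1 and 8.98 against 17.2, 22.7 and 10.9 normalized counts and did not pass the test (log2 fold change 1.18, edgeR adjusted p = 0.081). Tlr11 had 0 counts in every Ahr+/+ library and 1, 5 and 1 counts in Ahr-/- libraries, and Tlr5, the flagellin receptor, had 0, 0 and 1 against 1, 1 and 0. These last genes were too scarce to be tested.

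Cells other than B cells that carry TLRs were followed by their own markers. Of 10 markers of plasmacytoid dendritic cells, which express TLR7, TLR9 and TLR12, 8 were higher in Ahr-/- libraries and the other two did not pass the test, with a median log2 fold change of 1.40. Siglech, which had the largest fold change of the list, had 52.3 to 60.6 normalized counts in Ahr+/+ and 236 to 300.4 in Ahr-/- libraries. Those that did not pass were Bst2 and Rpgrip1, with log2 fold changes of 0.22 and -0.07. The summed level of the list was 3963 to 4578 against 5034 to 6098, most of it Bst2 and Pacsin1. Of 10 markers of conventional dendritic cells, 5 were higher and 1 lower, with a median log2 fold change of 0.53 and sums of 2000 to 2387 against 2478 to 2740. Among 11 markers of macrophages and monocytes 1 was higher, Ccr2, and 1 lower, Emr1, with a median log2 fold change of 0.60 and 8 of the 11 above 0. Their sums were 1302 to 1744 against 817 to 1464, of which Emr1 made up 633 to 662 in Ahr+/+ and 35.6 to 63.5 in Ahr-/- libraries. Of 9 neutrophil markers 0 passed the test by edgeR or DESeq2, with 2 higher at an unadjusted p under 0.05, and the summed level was 141 to 388 against 153 to 575. No marker that was counted stood at 0 in all libraries. The part of such cells in the higher Tlr9, Tlr1, Tlr2, Ly86 and Tlr12, and in the higher Cd14, Ly96, Cd36 and Il1b of the pathway, was not tested.

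Some markers of B-cell subsets also passed the test. Of 8 B-cell markers 4 were higher and 2 lower in Ahr-/- libraries, with sums of 78822 to 83037 against 90588 to 94404 normalized counts. Among 8 markers of marginal zone B cells, which respond strongly to TLR ligands, 3 were higher, Cr2, S1pr3 and Pdia4. For Cr2 the libraries of the genotypes overlapped (edgeR adjusted p = 0.043). The 2 lower were Cd9, with a log2 fold change of -1.17, and Dtx1, with -1.75. The sums of the list were 46038 to 49425 against 42719 to 45761. Of 5 B-1 cell markers, Cd5 was higher and Bhlhe41 and Plscr1 were lower. The part of subset composition in the results on TLRs was not tested.

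The pathway around the receptors was followed in 64 genes in 5 lists, of which 60 were tested, 18 rose and 10 fell. Their median log2 fold change was 0.01. Over all 13682 genes tested, 9.79% were called higher and 8.13% lower, the shares against which these counts and those of each list below stand. The lists were chosen with earlier results of these data known, so the counts are a description. The list of co-receptors, chaperones and endosomal factors had 14 tested genes, of which 9 rose and 1 fell, with a median of 0.25. Cd14, which hands lipopolysaccharide and other ligands to the receptors, rose from 7.08 ± 3.86 to 24.7 ± 13.1 normalized counts (log2 fold change 1.64, SE 0.47, edgeR adjusted p = 0.030). Ly96, which encodes MD-2, rose from 43.4 ± 4.91 to 95.7 ± 26.0 (1.10, SE 0.21, adjusted p = 0.0029), while Tlr4, its partner, did not pass the test. Myeloid and dendritic cells are known to carry both Cd14 and Ly96, and their part in these values was not tested. Cd36, a scavenger receptor that assists TLR2 with TLR6, rose from 178 ± 11.5 to 452 ± 98.5 (1.33, SE 0.15, adjusted p = 3.5e-05).

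The factors that take the endosomal receptors to their place moved in different directions. Unc93b1, which carries TLR3, TLR7 and TLR9 from the endoplasmic reticulum to endosomes, had 10834 to 11540 normalized counts in Ahr+/+ and 13860 to 14410 in Ahr-/- libraries (log2 fold change 0.34, edgeR adjusted p = 3.4e-05). It was named for this role after its values had been seen. Cnpy3, a chaperone needed to fold most TLRs, fell from 7389 ± 267 to 4619 ± 83.0 (log2 fold change -0.68, SE 0.04, edgeR adjusted p = 1.2e-07), the only gene of the list to fall. Hsp90b1, the chaperone gp96 with which CNPY3 works, did not pass the test (log2 fold change -0.06, edgeR adjusted p = 0.29). The proteases that can cleave endosomal TLRs, Ctsb, Ctsl, Ctss and Lgmn, all rose, with log2 fold changes of 0.31, 0.49, 0.30 and 0.21.

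Of 20 adaptors, kinases and transcription factors, 5 rose and 1, Traf3, fell, with a median log2 fold change of -0.02. Myd88, the adaptor of every TLR except TLR3, had a log2 fold change of -0.02 (edgeR adjusted p = 0.82). Ticam2 and Ticam1, which encode the adaptors TRAM and TRIF of TLR4 and TLR3 signalling, rose by 0.58 and 0.28 on the log2 scale (SE 0.08 and 0.05, edgeR adjusted p = 2.0e-04 and 0.0025). Irf5, a transcription factor downstream of TLR7 and TLR9, rose from 4809 ± 90.5 to 7063 ± 252 normalized counts (log2 fold change 0.56, SE 0.04, adjusted p = 7.7e-07). Pik3ap1, encoding the B-cell adaptor BCAP, rose from 7223 ± 379 to 9091 ± 434 (0.33, SE 0.05, adjusted p = 3.1e-04).

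Of 11 negative regulators, 3 fell and 1 rose. Ptpn6, encoding the phosphatase SHP-1 that also restrains the B-cell receptor, fell from 37838 ± 1023 to 17698 ± 1200 normalized counts (log2 fold change -1.10, SE 0.05, edgeR adjusted p = 5.4e-09). Irak3, the inhibitory kinase IRAK-M, fell from 628 ± 20.3 to 394 ± 22.5 (-0.69, SE 0.07, adjusted p = 1.3e-05), and Cyld, a deubiquitinase, fell by 0.18 on the log2 scale (adjusted p = 0.012). Tnfaip3, encoding the ubiquitin editor A20, went the other way, from 5402 ± 192 to 7508 ± 342 (0.48, SE 0.04, adjusted p = 7.8e-06).

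Of 13 tested genes that TLR ligands are known to induce, 2 rose and 5 fell, with a median log2 fold change of -0.20. Il1b rose from 27.7 ± 11.8 to 117 ± 66.0 normalized counts (log2 fold change 1.99, SE 0.40, edgeR adjusted p = 0.0037), and Tnf rose by 0.40 on the log2 scale (adjusted p = 0.0084). Ccl3 and the costimulatory gene Cd86 fell, with log2 fold changes of -0.45 and -0.40 (edgeR adjusted p = 0.019 and 4.2e-04). Nfkbiz, Nfkbid and Nfkbia, regulators of NF-κB, also fell, with log2 fold changes of -0.36, -0.20 and -0.21. Many of these genes also respond to the B-cell receptor, which was engaged in all cultures. Il1b, Cd14 and Ly96 were highest in Ahr-/- replicate 1 and lowest in Ahr-/- replicate 3 within that genotype, the order also seen for Tlr2 and Ly86. Tlr7, Tlr3, Irf7, Cd86 and the B-cell marker Ms4a1 had the same order, so it was not particular to these genes. The macrophage markers Lyz2 and Csf1r were instead highest in Ahr-/- replicate 2. What sets this order was not tested.

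**Figure D4:**
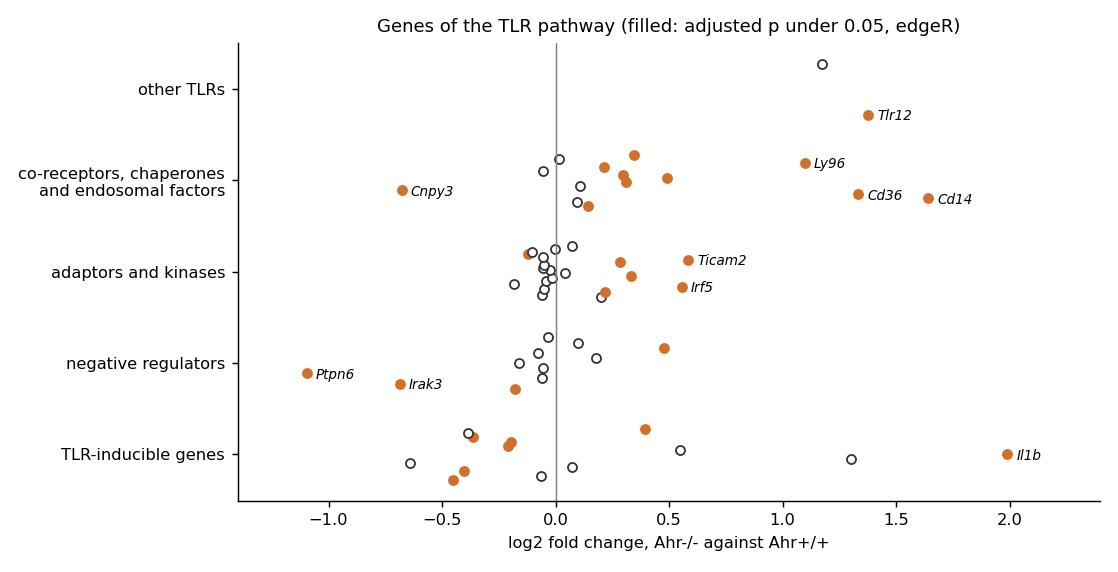
Log2 fold change, Ahr-/- against Ahr+/+, of the 60 tested genes of 5 TLR pathway lists. Each point is a gene, filled where the edgeR adjusted p was under 0.05, and names are given for filled points beyond 0.55 in size. Filled points are mostly right of 0 among co-receptors, chaperones and endosomal factors (9 of 10) and mostly left of 0 among TLR-inducible genes (5 of 7).

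The genes whose log2 CPM over the 6 libraries most resembled that of each changed gene were looked for among 10543 genes with at least 1 CPM on average. Aldh3b1 was nearest to Tlr1 (Pearson r = 0.998), Ms4a1, which encodes CD20, to Tlr2 (r = 0.997), Gm5617 to Tlr9 (r = 0.999) and Rangrf to Ly86 (r = 0.997). The 6 points are 2 clusters set by genotype, which by itself favours high r values. Of the 10543 genes, 354, 184, 329 and 115 had an r over 0.95 with Tlr1, Tlr2, Tlr9 and Ly86. These values are a description only.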

How the data were processed

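Poly(A) RNA of 6 cultures was sequenced from stranded Illumina libraries. The authors deposited raw counts per gene, and the submitters' processing notes name TopHat2 (version 2), HTSeq, DESeq and the mm10 build. Options for strand and for reads fitting several genes are not given in the sources used here. The deposited normalized counts and the authors' own comparison of the genotypes were not used.

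The raw counts were fitted with edgeR 4.0.16 under R 4.3.3 (TMM normalization, quasi-likelihood test, prior count 0.125). A gene was tested if its counts over all libraries came to 10 or more, and p-values were adjusted by Benjamini-Hochberg over all 13682. Intervals of 95% use the moderated t distribution. Ratios within libraries were compared with exact permutation tests. Alternatives were DESeq2 1.42.0, its size factors, library size alone, other filters, a robust fit, a replicate block, a stricter threshold and leaving out each library. The precision of scarce genes is limited by their counts, and counts of 0 were kept as 0 in the normalized values.

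Positions and exon lengths are from the GRCm38 annotation, and promoters from RefSeq (GRCm38.p6), matched by symbol. Replicates of a genotype differed by more than counting noise (chi-square per degree of freedom 3.96 to 9.24). The genes and lists were chosen with earlier results of these data known. Named in the text were all 10 genes, the other TLRs, for each pathway list up to 4 called genes with the largest fold changes, with genotypes apart and a mean in the higher genotype of 10 normalized counts or more, and the gene nearest to each changed gene by Pearson r. Other pathway genes, and Irf7, were named for their known role after their values had been seen. Of 9 T-cell markers 2 were lower, and of 7 NK-cell markers 2 were higher; the others of these lists did not pass edgeR's test.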

Additional observations from a re-analysis of the deposited data

How the results depend on the processing

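Of 139 recomputed fold changes of the 10 genes under 14 alternatives, 124 kept their direction and their side of the threshold. With any single library left out, the log2 fold change ranged from 0.49 to 0.68 for Tlr2, -1.50 to -0.74 for Tlr3, -0.034 to 0.17 for Tlr4, -0.39 to -0.069 for Tlr7, -0.0082 to 0.065 for Cd180 and 0.16 to 0.26 for Ly86. For Tlr6 it ranged from 0.028 to 0.17 and for Tlr8 from 0.40 to 0.90. Tlr2 and Ly86 lost their calls in 5 and 4 of 6 such fits, Tlr3 and Tlr7 gained a call without Ahr-/- replicate 1, and these fits have fewer samples. The number of the 10 genes that changed was then 2 to 4: without Ahr-/- replicate 2, Ahr+/+ replicate 1 or Ahr+/+ replicate 3 it was 2. Without Ahr-/- replicate 1, 2 were higher and 2 lower. Tlr3 passed the threshold without a filter on low counts (log2 fold change -1.11, adjusted p = 0.033) and in the robust edgeR fit (-1.11, adjusted p = 0.044); the cause was not tested. At an adjusted p under 0.01, 2 of the 10 genes and 1473 of all genes were called. The log2 ratio of Tlr4 to Cd180 ranged from -0.0455 to 0.13 and had no stable sign. In DESeq2 the markers called higher were 7 in place of 8 for plasmacytoid dendritic cells, 2 in place of 3 for marginal zone B cells, 2 in place of 1 for macrophages and monocytes and 1 in place of 2 for NK cells, and of co-receptors, chaperones and endosomal factors 8 in place of 9. With the longest annotated transcript as length, Cd180 and Ly86 stood at 50.3 and 33.8 CPM per kb in Ahr+/+ B cells. Tlr8 was not tested with a minimum of 10 counts in 3 libraries. Same-numbered libraries of the genotypes did not deviate together (correlations of -0.030, 0.12 and -0.045), and with the replicate block 4 of the 10 genes were called, as without it. The raw counts of Tlr8 were 3 to 11 in a library, which limits its precision.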
